A study of Mus musculus with 6 samples.

Results

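The 10 genes that encode chemokine receptors of thymic cells (Ccr2, Ccr4, Ccr6, Ccr7, Ccr8, Ccr9, Cxcr3, Cxcr4, Cxcr5 and Cxcr6) were followed by RNA sequencing in mouse thymus libraries. They were picked by gene symbol, and all 10 were found among the 22298 genes of each table. The 2 groups were 3 libraries of Toxf/f mice, in which both copies of Tox carry loxP sites, and 3 libraries of Toxf/fCd4Cre mice, which also carry a Cre recombinase driven by Cd4 regulatory sequences. All mice were of the C57BL/6 strain and had no treatment. In both groups replicate 1 came from mice 4 weeks old and replicates 2 and 3 from mice 3 weeks old. The titles name double-negative (DN) thymocytes and the protocol a sort of DN2 cells. There was no group with Cd4Cre and an unfloxed Tox gene, so loss of Tox and presence of Cre cannot be told apart. The labels do not say that all replicates were separate animals. Ages set replicate 1 apart from replicates 2 and 3, and Y-linked reads (below) set Toxf/f replicate 2 apart from replicate 3. For Toxf/fCd4Cre replicates 2 and 3 this is not known. The p-values thus measure the spread between these libraries, which may in part be technical.

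Chemokine receptors are G protein-coupled receptors that guide cells along gradients of small secreted proteins, the chemokines. In the thymus, Ccr9 and Cxcr4 answer to Ccl25 and Cxcl12 of the cortex, and Ccr7 and Ccr4 draw positively selected thymocytes towards the medulla. Ccr6, Ccr2, Cxcr3, Cxcr5 and Cxcr6 are better known from smaller populations, among them innate-like T cells, regulatory T cells, B cells and myeloid cells.

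Total estimated counts were 14550593 to 16099023 per library. Tox, the targeted gene, stood at 109, 99.2 and 103 CPM (counts scaled to library size) in the Toxf/f libraries and at 12.5, 15.1 and 10.2 CPM in the Toxf/fCd4Cre libraries, so each library matched its label. DN2 cells are marked by Kit, which was at 20.4 CPM in the Toxf/f mean, whereas Rag1 and Cd8a, which double-positive thymocytes express strongly, stood at 4932 and 1712 CPM, and epithelial, B cell and macrophage markers were detected too. The DN2 label therefore does not describe all transcripts measured. For such bulk samples, fewer cells of a type and less RNA per cell cannot be told apart. Toxf/f replicate 2 was the library with reads of Y-linked genes (3740 counts over 4 genes, against 2 to 5 in each of the others).

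Of the 10 receptors, 4 fell in the Toxf/fCd4Cre libraries (Ccr6, Cxcr5, Ccr7 and Ccr4), 3 rose (Ccr2, Cxcr6 and Cxcr3) and 3 did not pass the test (Ccr8, Ccr9 and Cxcr4). The count of receptors that rose was 1 in 10 of 17 other settings, where Ccr2 alone passed. The receptor transcripts of highest level, Ccr9 and Cxcr4, were among those that did not pass. Changes were tested with the edgeR quasi-likelihood test across 13934 genes, where 2.96% of all genes passed an adjusted p of 0.05 as lower, 1.15% as higher and 4.11% in either direction. The median log2 fold change (Toxf/fCd4Cre minus Toxf/f) of the 10 receptors was -0.31, against 0.01 over all genes tested. The groups did not overlap for 9 of the 10 receptors, Ccr9 being the exception, while 22.0% of all tested genes showed no overlap.

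**Figure D1:**
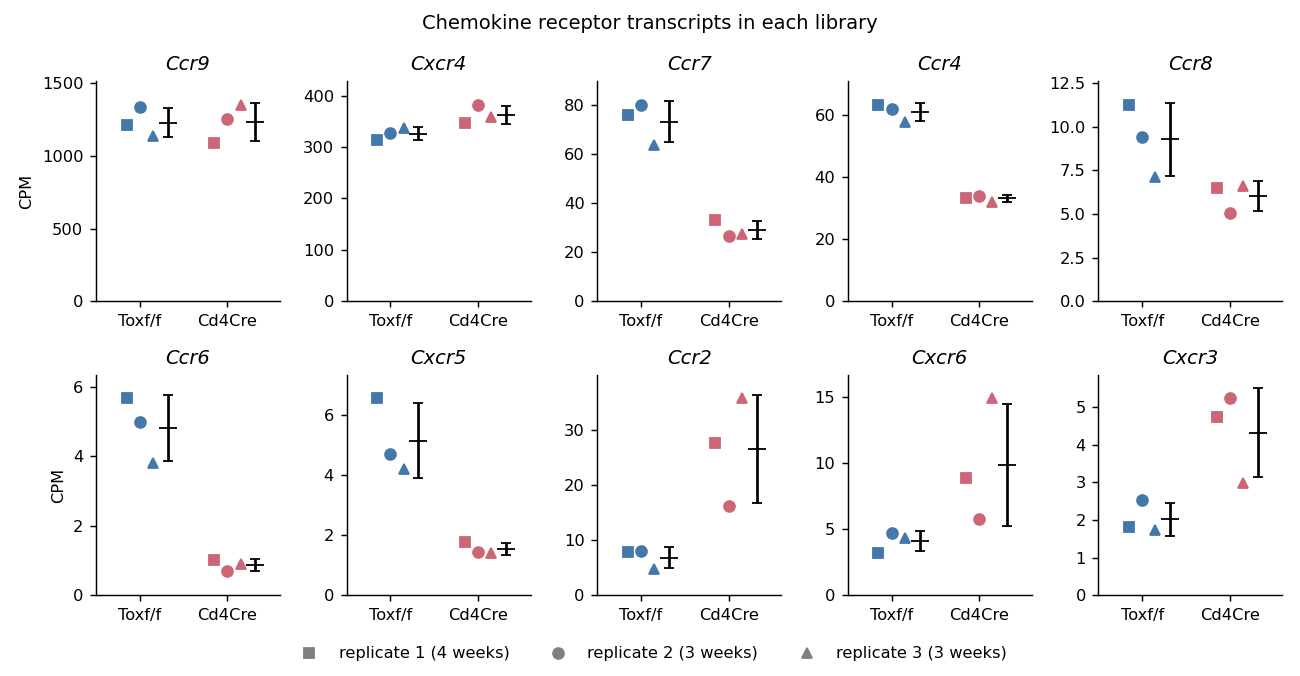
Level of each receptor in each library, in CPM on a linear axis that starts at 0 in every panel. Points are libraries, with the shape giving the replicate and the bar beside them the mean ± SD (n = 3). The Toxf/fCd4Cre libraries lie below all Toxf/f libraries for Ccr7, Ccr4, Ccr8, Ccr6 and Cxcr5, above them for Cxcr4, Ccr2, Cxcr6 and Cxcr3, and among them for Ccr9.

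Levels of different genes were compared per transcript length, as the deposited FPKM. In the Toxf/f libraries the order was Ccr9 (401 FPKM), Cxcr4 (232), Ccr7 (37.2), Ccr4 (21.9), Ccr8 (7.92), Ccr6 (3.98), Ccr2 (2.20), Cxcr5 (2.17), Cxcr6 (2.16) and Cxcr3 (1.17). Neighbours in this order did not overlap between libraries, except Ccr2, Cxcr5 and Cxcr6, whose ranges overlapped. Beyond direct neighbours, the range of Ccr6 (3.05 to 4.78 FPKM) also overlapped that of Cxcr5 (1.59 to 3.12 FPKM). Ccr9 and Cxcr4 together made up 88.9% of the summed FPKM of the 10 genes in the Toxf/f group and 93.0% in the Toxf/fCd4Cre group. The other 8 receptors summed to 78.7 and 49.3 FPKM.

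The order below the first 4 places was different in the Toxf/fCd4Cre libraries. There Ccr2 (8.68 FPKM) and Cxcr6 (5.16) stood at the fifth and the sixth place, their ranges overlapping those of their neighbours Ccr4 (11.7) and Ccr8 (5.11). Ccr6 (0.86 FPKM) and Cxcr5 (0.58) were the lowest, with ranges that overlapped each other. For Ccr6 the CPM that corresponded to 1 FPKM varied 1.69-fold between libraries, against 1.02-fold to 1.27-fold for the other 9 genes, so its FPKM carries an added length uncertainty and its changes are given in CPM.

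Start-site windows were found in RefSeq (GRCm38.p6) for 8 of the 10 genes, 9 windows in all, each from 250 bases before to 50 after the start. Those of 3 genes that changed and share the letters CTTTGA, a core known for Tcf7 and Lef1, are shown, and that of Ccr2, the gene with the largest rise. Capitals mark every match on either strand to 5 motifs, so that CTTTGA on the other strand reads TCAAAG. Beside CTTTGA these were the RUNX core TGTGGT, the E-box of E proteins CAGGTG, the GATA motif AGATAA and the T-box motif AGGTGT. The windows are chr9:114496495-114496794 (Ccr4, minus strand), chr17:8235793-8236092 and chr17:8242276-8242575 (the upstream and downstream starts of Ccr6, plus strand), chr9:123806227-123806526 (Cxcr6, plus strand) and chr9:124101933-124102232 (Ccr2, plus strand).
Ccr4: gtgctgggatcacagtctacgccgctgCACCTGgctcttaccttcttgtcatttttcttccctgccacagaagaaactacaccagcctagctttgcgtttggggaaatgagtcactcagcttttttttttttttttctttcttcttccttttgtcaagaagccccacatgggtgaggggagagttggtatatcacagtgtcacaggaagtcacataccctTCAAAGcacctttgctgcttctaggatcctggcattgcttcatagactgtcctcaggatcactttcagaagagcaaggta
Ccr6 upstream start: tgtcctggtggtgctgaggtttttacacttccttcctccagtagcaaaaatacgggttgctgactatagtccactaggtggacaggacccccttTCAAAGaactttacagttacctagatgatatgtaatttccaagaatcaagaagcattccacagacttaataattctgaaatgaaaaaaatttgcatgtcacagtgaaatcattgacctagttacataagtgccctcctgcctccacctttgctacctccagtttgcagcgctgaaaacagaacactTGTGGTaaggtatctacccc
Ccr6 downstream start: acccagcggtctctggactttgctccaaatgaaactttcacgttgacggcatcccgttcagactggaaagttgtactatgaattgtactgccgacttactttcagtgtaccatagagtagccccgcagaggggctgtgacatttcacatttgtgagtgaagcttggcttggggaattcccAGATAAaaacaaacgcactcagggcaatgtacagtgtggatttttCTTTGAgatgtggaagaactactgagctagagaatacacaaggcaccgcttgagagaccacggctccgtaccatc
Cxcr6: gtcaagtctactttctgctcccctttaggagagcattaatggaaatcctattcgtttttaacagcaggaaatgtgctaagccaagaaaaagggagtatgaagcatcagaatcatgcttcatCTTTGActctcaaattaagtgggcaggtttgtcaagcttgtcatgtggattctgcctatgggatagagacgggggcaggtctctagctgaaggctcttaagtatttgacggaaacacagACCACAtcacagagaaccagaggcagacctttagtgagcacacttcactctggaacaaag
Ccr2: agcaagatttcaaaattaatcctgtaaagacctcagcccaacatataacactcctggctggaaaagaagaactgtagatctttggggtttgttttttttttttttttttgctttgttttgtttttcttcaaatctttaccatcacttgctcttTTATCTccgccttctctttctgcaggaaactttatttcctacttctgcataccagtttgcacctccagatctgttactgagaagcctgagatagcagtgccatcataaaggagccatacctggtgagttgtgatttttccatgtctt

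CTTTGA was present in 4 of the 9 windows, those of Ccr4, Ccr6 (both starts) and Cxcr6, and in 16.0% of 32851 promoter windows of the same length. It lay 30 bases before the start of Ccr4, 156 and 25 bases before the starts of Ccr6 and 129 bases before that of Cxcr6, so genes that fell and a gene that rose carried it. TGTGGT was in 3 windows (Cxcr6, Ccr6 upstream and Cxcr3; 16.8% of all), AGATAA in 3 (Ccr8, Ccr2 and Ccr6 downstream; 11.2%) and CAGGTG in 3 (Ccr4, Ccr9 and Cxcr3; 20.2%). In Cxcr3 a CAGGTG match and a TGTGGT match lay side by side. No window held AGGTGT, which was in 13.7% of all. The window of Cxcr4 stood apart in base composition, with 20 CpG dinucleotides against 1 to 10 in the other member windows and a median of 7.0 over all promoters.

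Ccr9 and Cxcr4, the receptors of the cortical chemokines, were the most abundant in both genotypes. Ccr9 stood at 1215, 1335 and 1138 CPM in the Toxf/f libraries (replicates 1 to 3) and at 1091, 1255 and 1353 CPM in the Toxf/fCd4Cre libraries. The groups overlapped throughout, and the log2 fold change was 0.0044 (SE 0.09, edgeR adjusted p = 0.988). Its sign turned negative under other settings, so no direction can be given. Part of the Ccr9 exons lies opposite exons of Slc6a20a, which was at 2.92 CPM in the Toxf/f mean.

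Cxcr4, which retains progenitors and double-positive cells near Cxcl12, was measured at 314, 328 and 338 CPM in the Toxf/f libraries and at 348, 383 and 359 CPM in the Toxf/fCd4Cre libraries. All 3 Toxf/fCd4Cre values lay above the Toxf/f values, by a small margin. The log2 fold change of 0.15 (SE 0.07) did not pass (edgeR adjusted p = 0.308, 0.177 to 0.879 over the other settings). Of 10 markers of the DN3 to double-positive stages, which carry these receptors, 1 rose (Ptcra) and 9 did not pass, with summed levels of 11375 to 11691 CPM and 12270 to 12756 CPM.

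Ccr7 and Ccr4, the receptors of thymocytes moving to the medulla, both fell. Ccr7, the receptor for Ccl19 and Ccl21, had 75.8, 80.2 and 63.8 CPM in the Toxf/f libraries and 33.3, 26.6 and 27.5 CPM in the Toxf/fCd4Cre libraries. The lowest Toxf/f library lay far above the highest Toxf/fCd4Cre library. The mean went from 73.3 ± 8.48 to 29.1 ± 3.63 CPM (SD, n = 3), which is 39.8% of the Toxf/f level (log2 fold change -1.33, SE 0.11, edgeR adjusted p = 3.45e-05).

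Ccr4, the receptor for Ccl17 and Ccl22 that appears soon after positive selection, had 63.3, 62.0 and 57.8 CPM in the Toxf/f libraries against 33.4, 34.0 and 31.9 CPM in the Toxf/fCd4Cre libraries. The spread within each group was small, with means of 61.0 ± 2.86 and 33.1 ± 1.04 CPM (SD, n = 3). The fall left 54.2% of the Toxf/f level (log2 fold change -0.88, SE 0.08, edgeR adjusted p = 4.55e-05). Both calls held without any 1 of the 6 libraries, with log2 fold changes from -1.44 to -1.26 for Ccr7 and from -0.92 to -0.86 for Ccr4.

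The level of Ccr7 relative to the 2 cortical receptors was also read within each library. Ccr9 and Cxcr4 did not pass the test, so these ratios largely restate the fall of Ccr7. No ratio was formed with Ccr4. The FPKM of Ccr7 was 9.64%, 9.38% and 8.76% of that of Ccr9 in the Toxf/f libraries and 4.63%, 3.27% and 3.14% in the Toxf/fCd4Cre libraries. Relative to Cxcr4 it was 17.0%, 17.7% and 13.6% against 6.81%, 4.97% and 5.46%. Neither ratio overlapped between the groups, and the ratios were 2.56-fold and 2.81-fold lower in Toxf/fCd4Cre. Two-sided exact permutation tests of the log2 ratios gave p = 0.1 for both, the smallest value that 3 against 3 libraries allow.

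Markers of mature single-positive T cells moved with Ccr7 and Ccr4. Of 13 such markers 9 fell and 4 did not pass (median log2 fold change -0.96), where 2.96% of all genes passed as lower. Their summed level was 1190 to 1279 CPM in the Toxf/f libraries and 888 to 938 CPM in the Toxf/fCd4Cre libraries. Their leading members were the lymphocyte GTPase genes Gimap4 and Gimap3 and Zbtb7b, the factor of CD4 lineage choice, with log2 fold changes of -2.33, -2.21 and -1.62. Markers of regulatory T cells (8 of 10) and of conventional dendritic cells (2 of 9) were also called lower, as given below. The part of any of these cells in the receptor changes was not tested. All marker lists were chosen with earlier results of these data known, so their counts are not independent support.

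Ccr8, the receptor for Ccl1 and Ccl8 that is found on regulatory and recently selected T cells, had 11.2, 9.42 and 7.12 CPM in the Toxf/f libraries and 6.46, 5.05 and 6.61 CPM in the Toxf/fCd4Cre libraries. The groups did not overlap, but the lowest Toxf/f value was close to the highest Toxf/fCd4Cre value. The log2 fold change of -0.62 (SE 0.19) did not pass (edgeR adjusted p = 0.108). It passed in 1 setting, without Toxf/f replicate 3 (-0.78, adjusted p = 0.0448, where the adjusted p over all settings ran from 0.0448 to 0.604).

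Ccr6 had the largest change of the 10 receptors. It is the receptor for Ccl20 and is carried by interleukin-17-producing T cells, B cells and some regulatory T cells. Its level was 5.66, 4.99 and 3.79 CPM (88, 73 and 57 counts) in the Toxf/f libraries and 1.01, 0.69 and 0.90 CPM (16, 11 and 13 counts) in the Toxf/fCd4Cre libraries. The fall left 18.1% of the Toxf/f level (log2 fold change -2.46, SE 0.26, edgeR adjusted p = 0.000208). These are few reads, yet the call held without any 1 library (-2.61 to -2.32).

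Cxcr5, the receptor for Cxcl13 on B cells and follicular helper T cells, had 6.56, 4.71 and 4.19 CPM (102, 69 and 63 counts) in the Toxf/f libraries and 1.77, 1.43 and 1.39 CPM (28, 23 and 20 counts) in the Toxf/fCd4Cre libraries. The groups were clearly apart, with 29.9% of the Toxf/f level left (log2 fold change -1.74, SE 0.24, edgeR adjusted p = 0.00146). The call held without any 1 library (-1.87 to -1.53). Cxcr5 exons overlap exons of Bcl9l on the opposite strand, and 2.18% of the 50-base stretches of the longest Cxcr5 transcript also occur in Bcl9l. Bcl9l itself was at 48.6 and 48.0 CPM and did not pass (log2 fold change -0.02, with its sign changing when single libraries were left out), and use of strand in counting is not given in the sources used here.

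Of the cell types known to carry Ccr6, Cxcr5 and Ccr8, some had markers that were lower and others markers that were higher. Among 12 markers of B cells, 4 were called lower and 8 were not called (median log2 fold change -0.58; summed level 109 to 124 CPM in Toxf/f and 59.2 to 86.7 CPM in Toxf/fCd4Cre), led by Fcer2a (-2.75) and Ms4a1 (-1.67). Of 10 regulatory T cell markers 8 fell and 2 did not pass (median -1.29; 168 to 187 and 118 to 144 CPM). Of all genes tested, 2.96% passed as lower. Foxp3, the factor that defines regulatory T cells, had 93, 75 and 68 counts in the Toxf/f libraries and 2, 0 and 0 in the Toxf/fCd4Cre libraries. Il17a, the effector cytokine gene of the interleukin-17 lineage, was too low to be tested in either genotype (0.20 and 0.088 CPM). Other genes known from interleukin-17-type gamma-delta T cells were called higher, opposite to Ccr6: Cd163l1 at 2.63 and 48.1 CPM (log2 fold change 4.19), Blk at 5.51 and 11.4 CPM (1.05) and Maf at 17.8 and 29.9 CPM (0.75). The part of these cells in the falls of Ccr6 and Cxcr5 was not tested.

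The other 3 receptors rose. Ccr2, the receptor for Ccl2 that is known from monocytes and from some gamma-delta and effector T cells, had 7.78, 7.99 and 4.66 CPM in the Toxf/f libraries and 27.5, 16.1 and 35.7 CPM in the Toxf/fCd4Cre libraries. Even the lowest Toxf/fCd4Cre library was above all Toxf/f libraries, but the Toxf/fCd4Cre libraries differed widely among themselves. The mean was 3.87-fold higher (6.81 ± 1.87 against 26.5 ± 9.82 CPM, SD, n = 3; log2 fold change 1.95, SE 0.27, edgeR adjusted p = 0.00142). The call held without any 1 library (1.68 to 2.21).

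Cxcr6, the receptor for the membrane-bound chemokine Cxcl16 on innate-like and tissue-resident T cells, had 3.22, 4.71 and 4.32 CPM in the Toxf/f libraries and 8.86, 5.80 and 14.9 CPM in the Toxf/fCd4Cre libraries. As for Ccr2, Toxf/fCd4Cre replicate 2 was the lowest and replicate 3 the highest of its group. The log2 fold change of 1.26 (SE 0.30, edgeR adjusted p = 0.0372) was past the threshold by a narrow margin. The call was lost without Toxf/f replicate 1, 2 or 3 or Toxf/fCd4Cre replicate 1 (adjusted p 0.0787 to 0.153), with the replicate number as a block (0.0534), with age as a term (0.0565) and with limma-voom (0.0843), within a range of 0.000442 to 0.312 over all settings. Without Toxf/fCd4Cre replicate 3, the highest library, the log2 fold change was 0.84 and still passed.

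Cxcr3, the receptor for Cxcl9, Cxcl10 and Cxcl11 on effector and innate-like T cells, had 1.80, 2.53 and 1.73 CPM (28, 37 and 26 counts) in the Toxf/f libraries and 4.75, 5.24 and 2.99 CPM (75, 84 and 43 counts) in the Toxf/fCd4Cre libraries. Here replicate 3 was the lowest of the Toxf/fCd4Cre group, unlike for Ccr2 and Cxcr6. The log2 fold change was 1.10 (SE 0.26, edgeR adjusted p = 0.0377). The call was lost without any 1 library other than Toxf/fCd4Cre replicate 3 (adjusted p 0.057 to 0.154, over all settings 0.00569 to 0.426). It was also lost with age as a term (0.0711) and with limma-voom (0.0539). Cxcr3 is on chromosome X, and without Toxf/f replicate 2, the library with Y-linked reads, its log2 fold change was 1.29.

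**Figure D2:**
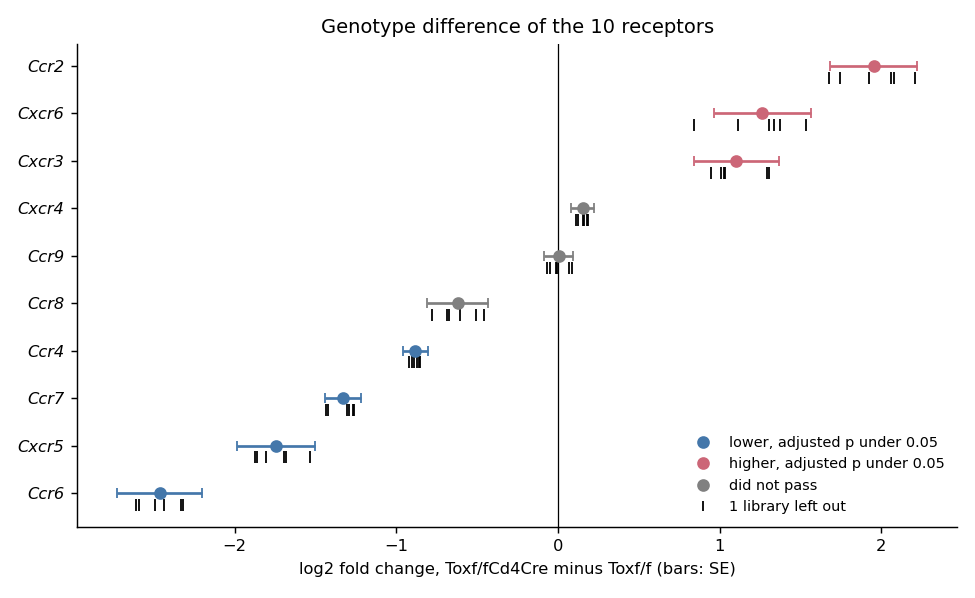
Log2 fold change of each receptor (horizontal axis, Toxf/fCd4Cre minus Toxf/f) with its standard error, ordered by value. Ticks under each point give the values with 1 library left out; they spread least for Ccr4 (-0.92 to -0.86) and most for Cxcr6 (0.84 to 1.53), and lie on both sides of 0 for Ccr9.

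Gamma-delta T cell markers were higher alongside these 3 receptors. Of 10 tested markers 7 rose and 3 did not pass (median log2 fold change 0.76), where 1.15% of all genes passed as higher. Their summed level was 322 to 356 CPM in the Toxf/f libraries and 581 to 625 CPM in the Toxf/fCd4Cre libraries. Trdc, the delta chain constant gene, was 172, 169 and 192 CPM against 325, 288 and 301 CPM. Within the Toxf/fCd4Cre group the sum was 618, 581 and 625 CPM for replicates 1 to 3, the same order as Ccr2 and Cxcr6 but not as Cxcr3. Replicates 1 and 3 were close in this sum, and a shared order of 3 libraries is no test of a link. Single markers differed in their order. Cd163l1 (48.9, 40.1 and 55.2 CPM), Trgc4 and Blk had that of Ccr2 and Cxcr6, whereas Trdc was highest in replicate 1 and Maf in replicate 2. Of 12 NK and NKT cell markers 3 rose (Klrk1, Klrb1c and Gzmb) and 9 did not pass (median 0.02; 142 to 151 and 149 to 188 CPM). The part of these cells in the rises was not tested.

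Monocytes and macrophages are another cell type known for Ccr2. Of 12 of their markers 1 fell (Lyz2, log2 fold change -1.33) and 11 did not pass (median 0.05), and the summed level was 849 to 894 CPM in the Toxf/f and 650 to 689 CPM in the Toxf/fCd4Cre libraries. Without Lyz2 the sum was 521 to 534 and 499.8 to 553 CPM, so the lower total came from that gene. Groups did not overlap for 7 of the 12 markers, against 22.0% of all tested genes. Of the 7, 3 were higher (Mrc1 at 43.7 and 52.6 CPM, Adgre1 at 31.8 and 38.4 CPM, Cd68 at 35.2 and 42.8 CPM) and 4 lower. The lower ones were Lyz2, Ly6c2 (25.5 and 19.7 CPM, log2 fold change -0.37), C1qa and C1qb. Of the 3 higher markers, Cd68 passed without Toxf/fCd4Cre replicate 3 (log2 fold change 0.34, edgeR adjusted p = 0.0366, against 0.139 with all libraries). The part of these cells in the level of Ccr2 was not tested. None of 6 plasmacytoid dendritic cell markers, a further population known to carry Ccr9 and Cxcr3, passed the edgeR test (median -0.24; 474 to 515 against 393 to 439 CPM summed), 1 had an unadjusted p under 0.05, DESeq2 called 1 and the limma fits 0.

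Among the 10 genes, 6 are on chromosome 9 (Ccr2, Ccr4, Ccr8, Ccr9, Cxcr5 and Cxcr6) in the GENCODE M21 annotation, and Ccr9, Cxcr6 and Ccr2 share a cluster with Xcr1, Ccr1 and Ccr3. Of the tested coding genes from Slc6a20a, the neighbour of Ccr9, to Ccr2, only Cxcr6 and Ccr2 passed. Fyco1, whose span contains Cxcr6 on the opposite strand with no shared exon bases, was at 68.7 and 66.3 CPM (log2 fold change -0.05). Ccr2 shares 2.27% of its 50-base stretches with other genes, and its counts in Toxf/fCd4Cre replicates 1 and 3 were not whole numbers, so a few of its reads may be divided with other genes.

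**Figure D3:**
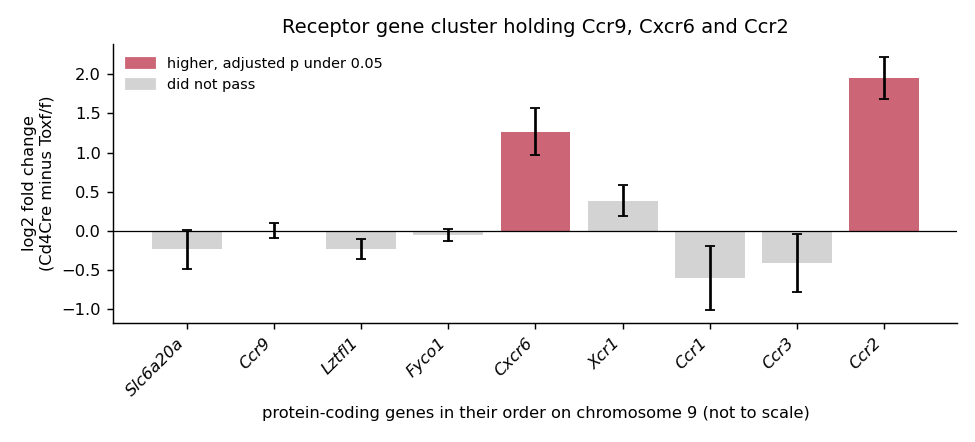
Log2 fold change (vertical axis, Toxf/fCd4Cre minus Toxf/f, bars with standard error) of the tested coding genes from Slc6a20a to Ccr2 on chromosome 9, in their order along the chromosome. Cxcr6 (1.26) and Ccr2 (1.95) passed the test, and the others drawn, among them Fyco1 (-0.05) and Xcr1 (0.39), did not.

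The ligands of these receptors, known mainly from epithelium and dendritic cells, were measured in the same libraries, and which cells their transcripts came from here was not tested. Of 17 listed ligands, 16 could be tested, of which 9 fell, 1 rose and 6 did not pass (median log2 fold change -0.71; 2.96% of all genes passed as lower). For the medullary receptors, ligand and receptor were lower together. Ccl22, a ligand of Ccr4 known from dendritic cells, fell from 130, 120 and 101 CPM to 29.0, 26.2 and 22.6 CPM (log2 fold change -2.17, SE 0.11, edgeR adjusted p = 6.79e-07), and Ccl17 fell by 1.31 on the log2 scale. Ccl21a and Ccl19, the ligands of Ccr7, fell by 0.64 and 0.71, where reads of Ccl21a may be divided with its near-identical copies. Ccl20, the ligand of Ccr6, fell from a mean of 5.72 to 2.13 CPM (-1.44).

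For 2 of the receptors that rose, the ligands were lower. Cxcl9, Cxcl10 and Cxcl11, the interferon-induced ligands of Cxcr3, had log2 fold changes of -1.28, -0.70 and -1.45 and passed as lower, as did Cxcl16, the ligand of Cxcr6 (-0.47). The ligands of Ccr2 did not pass (Ccl2 at -1.42, Ccl12 at -0.87 and Ccl7 at 0.27). Cxcl12, the ligand of Cxcr4, was the 1 ligand that rose (210 to 276 CPM, log2 fold change 0.39), and Ccl25, the ligand of Ccr9, at 628 and 727 CPM did not pass. Cxcl13, the ligand of Cxcr5, did not pass (0.23, with a sign that changed without Toxf/fCd4Cre replicate 3). Of the 10 ligands that passed, Ccl22 and Cxcl9 did so in every setting, and single left-out libraries ended the calls of Ccl17 (Toxf/f replicate 1 or 2, Toxf/fCd4Cre replicate 2), Ccl19 (Toxf/f replicate 1, Toxf/fCd4Cre replicate 1), Cxcl11 (Toxf/f replicate 2, Toxf/fCd4Cre replicate 1), Cxcl16 and Cxcl12 (Toxf/f replicate 1 or 2 for both).

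**Figure D4:**
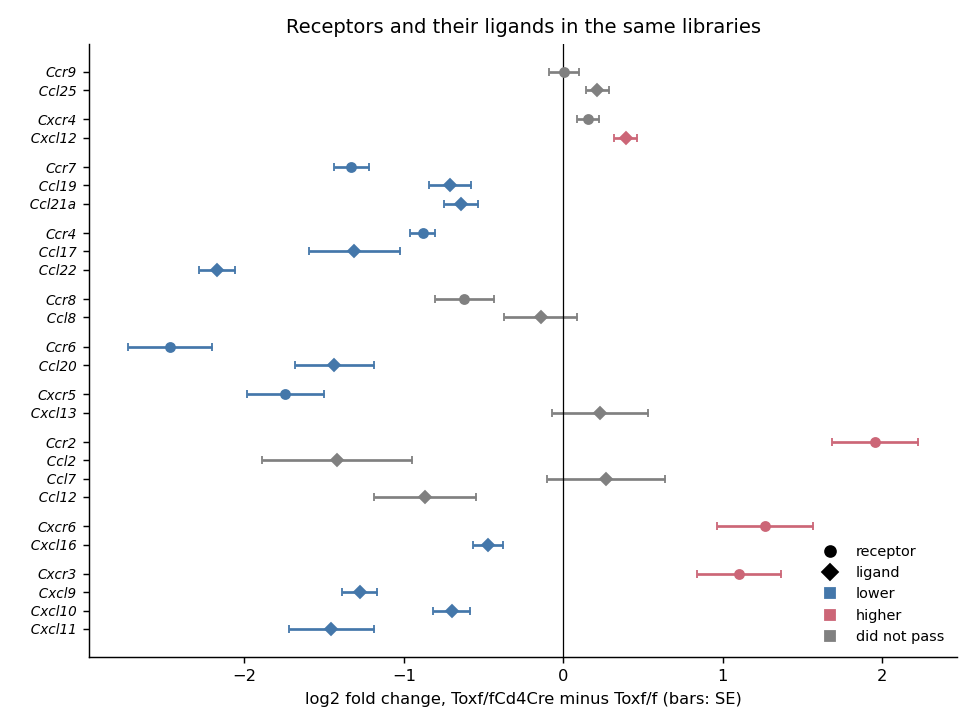
Log2 fold change (horizontal axis, Toxf/fCd4Cre minus Toxf/f, with standard error) of each receptor (circle) and of its tested ligands (diamonds) beneath it. Ccr7, Ccr4 and Ccr6 are lower together with their ligands, whereas Cxcr3 (1.10) and Cxcr6 (1.26) are higher with lower ligands (Cxcl9 at -1.28, Cxcl16 at -0.47).

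Dendritic cell and epithelial markers were measured beside the ligands. Of 9 conventional dendritic cell markers 2 fell and 7 did not pass (193 to 214 against 135 to 163 CPM summed), and of 10 thymic epithelial markers 4 rose, 2 fell and 4 did not pass (1537 to 1672 against 1838 to 2084 CPM). Of all genes tested, 2.96% passed as lower and 1.15% as higher. The part of these cells in the ligand changes was not tested.

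Outside the 10 receptors, the family and the machinery below it showed few calls. Of 13 other chemokine receptors, 11 could be tested and 0 passed (median log2 fold change -0.20). At an unadjusted p of 0.05 edgeR gave 1 (Ackr3, the scavenging receptor for Cxcl12, log2 fold change -0.66), and DESeq2, limma-voom and limma on log2 FPKM called 0. Of 37 genes for receptor signalling, desensitisation and integrin adhesion, 1 fell and 1 rose (median -0.00), shares near those of all genes. The risen gene was Rgs2 (47.4 to 62.6 CPM, log2 fold change 0.40) and the fallen one Rgs16 (3.95 to 1.99 CPM, -0.98), both regulators that switch off G protein signals. The call of Rgs2 was lost without Toxf/f replicate 2 or 3, and that of Rgs16 without any 1 Toxf/f library or Toxf/fCd4Cre replicate 1.

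For each receptor that passed, the 2 genes of most similar profile were looked up by the Euclidean distance of centred log2 CPM over the 6 libraries, among 11938 genes. Since the genotype difference dominates these profiles, the distance mainly ranks genes of like change, and it is a description without a test. Ccr4 had the closest match, Crybg1 (distance 0.08 against a median of 1.14 for all genes), followed by Zbp1 (0.14). Ccr7 lay nearest to Nostrin (0.18) and Nlrc5 (0.21), a regulator of MHC class I genes. Cxcr5 lay nearest to the B cell gene Ms4a1 (0.25) and to Ikzf4 (0.38), and Ccr6 to Gimap3 (0.39) and the immunoglobulin light chain gene Iglc2 (0.40).

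Cxcr6 lay nearest to Il18r1 (0.55) and Il18rap (0.70), which encode both chains of the interleukin-18 receptor. Il18r1 had 11.8, 13.9 and 10.2 CPM in the Toxf/f libraries and 28.1, 19.0 and 36.2 CPM in the Toxf/fCd4Cre libraries. Its Toxf/fCd4Cre replicates had the same order as Cxcr6, for likeness to which it was picked. Il18rap, at 10.4, 5.55 and 10.2 CPM, was highest in replicate 1. Cxcr3 lay nearest to Clec9a (0.35), a dendritic cell receptor gene that did not pass the test, and to the chemokine gene Ccl11 (0.52). Ccr2 had its nearest genes at 0.84 (Akr1c12) and 0.85 (Slc27a6), against a median of 2.55.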

How the data were processed

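Per the submitters' processing notes, reads were handled with fastp 0.18.0, HISAT2 and StringTie 1.3.1. Counting program, build, annotation and strand setting: not given in the sources used here. The authors deposited, per library and gene, an estimated count without normalization and an FPKM, scaled by the authors for length and library size. Of the count values, 9.27% to 9.87% were not whole, and they were rounded. Low genes were removed by filterByExpr (10 counts, 15 in total), libraries were scaled by TMM, and genotypes were compared with the quasi-likelihood test of edgeR 4.0.16 in R 4.3.3, two-sided, with Benjamini-Hochberg adjustment over all tested genes and a threshold of 0.05. Each SE is the log2 fold change divided by the root of its F statistic, and CPM are TMM-scaled. Alternatives used limma 3.58.1 and DESeq2 1.42.0.

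The 10 receptors and all gene lists were chosen with earlier results of these data known. Beyond the receptors, text names were taken by rule: listed receptors, ligands and signalling genes past the threshold (and ligands of receptors that passed), up to 3 genes of smallest p per marker list, and the 2 nearest profiles (prior count 2, mean of at least 2 CPM, no Gm or Rik names). Other genes named (Adgre1, Cd68, C1qa, C1qb, Blk, Maf, Il17a, Sox13, Il23r, Il1r1, Kit, Rag1, Cd8a, Xcr1, Ackr3, Fyco1, Bcl9l, Slc6a20a, Ccl25) were chosen after their values were seen, as was the sum of macrophage markers without Lyz2. Neighbours and shared stretches come from GENCODE M21, of which no coordinates are given. Some genes that the rule names are not reported here.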

Additional observations from a re-analysis of the deposited data

How the results depend on the processing

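Over 17 other settings for each of the 10 receptors (fewer where a filter removed the gene), 137 of 167 values kept direction and side of the threshold, 21 lost the threshold (Cxcr3 and Cxcr6 only), 1 gained it (Ccr8) and 8 changed sign (Ccr9). The count of receptors called lower was 4 in every setting but 2: it was 2 with a filter at a mean of 5 CPM, which removes Ccr6 and Cxcr5, and 5 without Toxf/f replicate 3. The count called higher was 1 with the 5 CPM filter, limma-voom, limma on log2(FPKM + 0.1) or log2(FPKM + 1), age as a term, or the 3-week libraries alone, and 1 to 3 with 1 library left out. The number of genes called was 572, 151 in the 3-week libraries alone and 298 to 1269 with 1 library left out (309 and 298 without Toxf/f replicate 1 or 2, 330 and 1269 without Toxf/fCd4Cre replicate 1 or 3).

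Signs changed for genes near 0. Ccr9 was at -0.0062 with the 5 CPM filter, -0.000796 with DESeq2 size factors, -0.000801 with the DESeq2 test, -0.000502 with age as a term and -0.0672 to 0.0852 with 1 library left out. With 1 library left out, Bcl9l ran from -0.19 to 0.11 and Cxcl13 from -0.0350 to 0.493. A pseudocount of 1 FPKM shrank Ccr6 to -1.42 and Cxcr5 to -0.97, both still called.

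With the replicate number as a block, 440 genes passed, with 4 receptors lower and 2 higher, Cxcr6 having lost its call (1.20, adjusted p = 0.0534), and the Ccr7 ratios keep their mean difference (exact sign-flip p = 0.25 for both, the smallest possible). Deviations of same-numbered libraries correlated across genes at 0.08, -0.11 and -0.04, so the numbers were not taken to pair the samples. Depth limits Cxcr3, Cxcr5 and Ccr6 most, with 11 to 102 counts per library. Scaling choices moved the median of all genes by at most 0.01 (log2).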

Other observations

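Haemoglobin genes and the heme synthesis gene Alas2, a sign of red cell RNA, varied between libraries, and the groups overlapped. The summed level of 5 such genes was 701, 572 and 2243 CPM in the Toxf/f libraries and 1488, 2613 and 703 CPM in the Toxf/fCd4Cre libraries.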
